A study of Mus musculus with 6 samples.

Results

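Several genes better known from nerve, muscle or endocrine cells than from enamel were lower in dental epithelium labelled as lacking Pkm. The 8 described here were Cntnap2, Anks1b, Ralyl, Pcsk2, Mlip, Esyt3, Otop2 and Fam3c, out of 24959 genes in the deposited table. They were chosen from the data: none has a standard role in enamel formation, and in each the CPM (reads corrected for how deeply each library was sequenced) of all 3 cKO libraries lay below those of all 3 controls. The differences between the groups are therefore given as a description, without a test. All 8 passed the filter on low counts and are among the 15930 genes tested.

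The 6 libraries came from mouse dental epithelial cells at postnatal day 0, the layer of the developing tooth that gives rise to the enamel-secreting ameloblasts. The controls (n = 3) are labelled wild type. The other group (n = 3) is labelled as a conditional knockout (cKO) of Pkm, which encodes the muscle-type pyruvate kinase isoforms of glycolysis. Nothing in the sources used here gives the Cre driver, the deleted exon, the strain or any pooling of animals. The labels call the samples biological replicates without naming animals, so p-values measure only the spread between these samples.

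The 8 genes have varied known roles. Cntnap2 encodes Caspr2, an adhesion molecule of the neurexin superfamily that gathers potassium channels along myelinated axons, and Anks1b encodes a scaffold of the postsynaptic density. Esyt3 encodes an extended synaptotagmin, one of the proteins that hold the endoplasmic reticulum close to the plasma membrane and move lipid between them. Pcsk2 encodes prohormone convertase 2, which cuts prohormones in secretory granules, and Fam3c encodes the secreted, cytokine-like protein ILEI. Otop2 encodes a proton channel of the otopetrin family. Mlip encodes a lamin-binding protein of muscle, and Ralyl a relative of the RNA-binding proteins RALY and hnRNP C.

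Total counts per library were 30588350 to 39415700. Pkm itself stood at 1049 to 1281 CPM in the controls and at 309 to 395 CPM in the cKO libraries, so each library matched its label. Pkm cKO replicate 3 stood apart, at 93.2 on the first principal component against -52.2 to 19.1 for the other 5. It also held 3673 CPM of 12 skeletal muscle genes, against 22.8 and 103 CPM in the other cKO libraries and 5.51 to 7.51 CPM in the controls. The log2 fold changes of the 8 genes ran from -4.35 to -1.44 with this library and from -3.83 to -1.35 without it.

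The adhesion gene Cntnap2 stood at 111, 88.9 and 83.4 CPM in control replicates 1 to 3 and at 31.4, 31.7 and 25.2 CPM in Pkm cKO replicates 1 to 3. The cKO values were close to each other, and the highest of them was far below the lowest control. The means were 94.6 ± 14.8 and 29.4 ± 3.68 CPM (SD, n = 3 each), which is 3.21 times lower (log2 fold change -1.68, SE 0.174). Because this is bulk RNA, fewer cells that express a gene and less of its RNA per cell cannot be told apart, here and for the genes below.

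Anks1b was scarce in both groups. Controls held 64, 55 and 43 reads (1.74, 1.42 and 1.12 CPM), and cKO libraries 5, 4 and 7 reads (0.162, 0.116 and 0.174 CPM). Pooled over each group, 10.7% of the control level was left, with a 95% exact interval of 5.94% to 17.8% that covers counting error only. The log2 fold change was -3.21 (SE 0.534).

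The membrane tether gene Esyt3 stood at 95.3, 63.0 and 53.6 CPM in controls, against 18.8, 21.3 and 13.8 CPM in cKO libraries. Control replicate 1 was well above the other controls, and the groups were nevertheless far apart. The means were 70.6 ± 21.9 and 18.0 ± 3.79 CPM (SD, n = 3 each), 3.93 times lower in the cKO group (log2 fold change -1.98, SE 0.252).

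Of the genes of secretion, Fam3c was the most abundant of the 8 and had the smallest difference. It stood at 233, 193 and 171 CPM in controls, against 90.4, 64.7 and 65.5 CPM in cKO libraries, a log2 fold change of -1.44 (SE 0.186). It also lay nearest to the limit set by the choice, with a log2 distance of 0.92 between the lowest control and the highest cKO library. Among related genes of at least 5 CPM, the one nearest to that limit on its other side was the convertase gene Mbtps1, with a lowest control of 409.6 CPM and a highest cKO library of 412 CPM. Pcsk2 stood at 9.97, 8.54 and 7.84 CPM in controls, against 1.94, 2.35 and 2.81 CPM in cKO libraries. Both groups were tight, and the means of 8.78 ± 1.08 and 2.37 ± 0.434 CPM (SD, n = 3 each) differed 3.70-fold (log2 fold change -1.89, SE 0.293).

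The proton channel gene Otop2 had the largest fold difference of the 8 and the widest spread. Controls held 151, 102 and 44 reads (4.11, 2.64 and 1.14 CPM), and cKO libraries 3, 9 and 1 reads (0.0969, 0.262 and 0.0248 CPM). The highest control was 3.60 times the lowest, and the highest cKO library 10.5 times the lowest. The log2 fold change was -4.35 (SE 0.785), and the pooled reads left 4.72% of the control level (95% exact interval 2.48% to 8.20%, counting error only). Without Pkm cKO replicate 2, the cKO library with the most reads, the log2 fold change was -5.43.

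Of the genes of the nucleus, Mlip was the steadiest in controls, at 16.0, 13.7 and 14.8 CPM. The cKO libraries stood at 1.78, 4.59 and 4.44 CPM, so replicate 1 was well below the other cKO libraries (log2 fold change -2.04, SE 0.351). Mlip is known from heart and skeletal muscle, and it was low in Pkm cKO replicate 3, where muscle genes were highest. Without that library its log2 fold change was -2.21. Ralyl stood at 2.97, 3.47 and 2.13 CPM in controls, against 0.485, 0.523 and 0.174 CPM in cKO libraries (109, 134 and 82 against 15, 18 and 7 reads). Its log2 fold change was -2.86 (SE 0.523), and the pooled reads left 13.3% of the control level (95% exact interval 9.31% to 18.5%, counting error only).

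**Figure D1:**
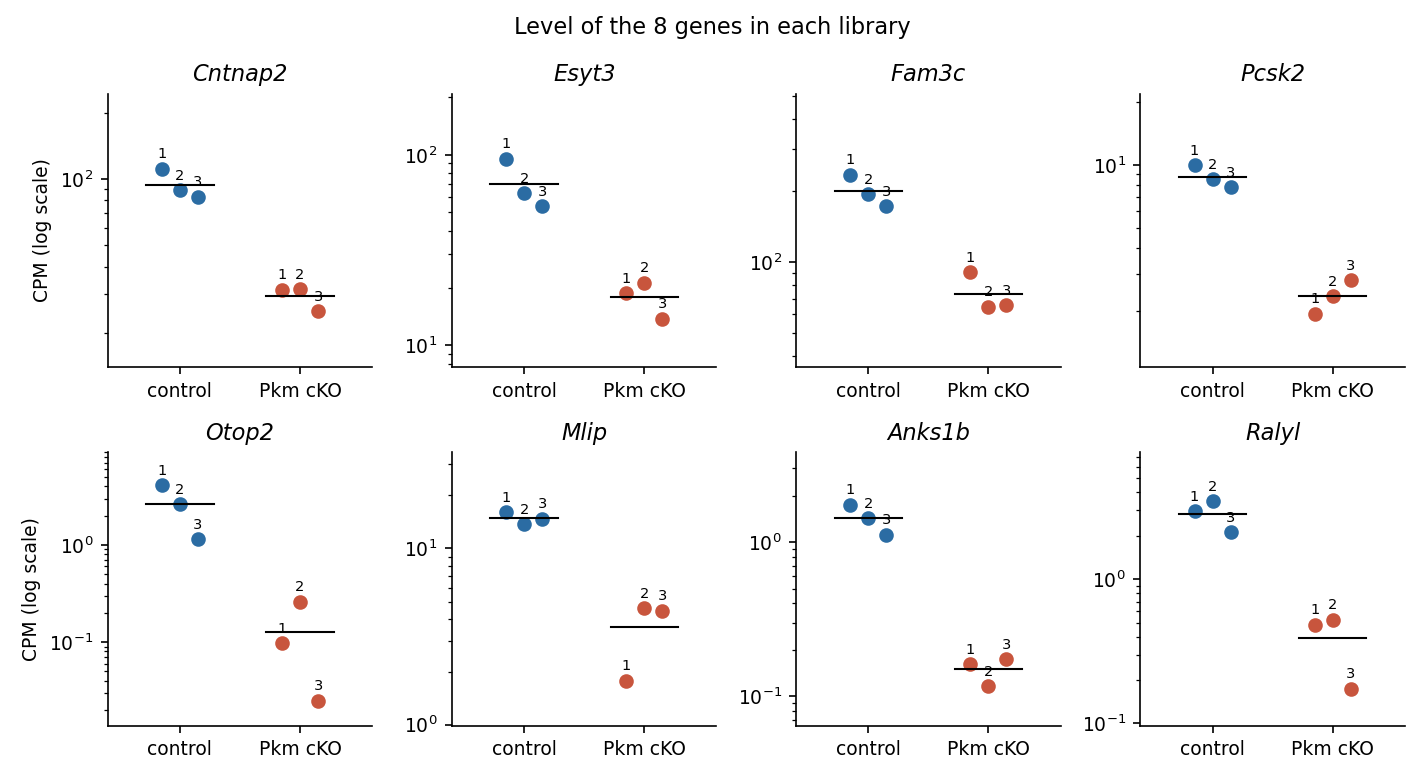
Level of each gene in CPM (log scale, a separate range per panel) in the 3 control (blue) and 3 Pkm cKO (red) libraries, numbered by replicate, with the group mean as a bar. In every panel the red points lie below the blue ones, as the choice of genes required, and the spread within a group is widest for Otop2.

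The 3 genes under 3 CPM in controls, Otop2, Anks1b and Ralyl, were the 3 with the largest folds, of 20.4, 9.27 and 7.26. Over the 15930 tested genes, edgeR's quasi-likelihood test called 0.552% at an adjusted p under 0.05, and 0.207% were called lower. By the rule used for the choice, 1938 (12.2%) lay lower in all cKO libraries than in all controls. Ranked among those 1938 by fold change, Otop2 came 5th, Anks1b 15th, Ralyl 21st, Mlip 66th, Esyt3 69th, Pcsk2 86th, Cntnap2 123rd and Fam3c 169th. The choice of the 8 used this same comparison, so these ranks describe them and test nothing.

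Levels of different genes were compared per kilobase of exon, with exon lengths from the GENCODE M21 annotation of the older build GRCm38. In controls Fam3c came first at 53.7 CPM per kb. Esyt3 (9.90 CPM per kb) and Cntnap2 (9.23) followed, and their ranges over the controls overlapped, at 7.51 to 13.4 and 8.14 to 10.9 CPM per kb. Mlip (1.66 CPM per kb) overlapped with none of the others but Otop2 and lay above Pcsk2 (1.11). Otop2 (0.994 CPM per kb, range 0.431 to 1.55) overlapped with Mlip, Pcsk2 and Ralyl (0.778). Anks1b was lowest at 0.0984 CPM per kb. In the cKO libraries Fam3c stood at 19.8 CPM per kb, and ranges of Cntnap2 (2.46 to 3.09) and Esyt3 (1.94 to 2.98) again overlapped.

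Within the controls the 8 genes mostly moved together. Control replicate 1 was the highest control for 7 of 8 and replicate 3 the lowest for 7 of 8, the exceptions being Ralyl, highest in replicate 2, and Mlip, lowest in replicate 2. The summed ameloblast genes, mostly Amelx, had the same order, with 25596, 22374 and 10919.5 CPM. So did Pkm, at 1281, 1185 and 1049 CPM. On the first principal component over all tested genes the controls also ran in replicate order, at -52.2, -39.9 and -25.3. The order is thus not particular to the 8 genes, and the share of all tested genes that had it was not counted. Within the cKO libraries this order of the 8 genes did not recur. Pkm cKO replicate 1 held 5765 CPM of the ameloblast genes against 922 and 469 CPM in replicates 2 and 3, but it was the highest cKO library for 1 of the 8, Fam3c, and the lowest for Pcsk2 and Mlip. Replicate 2 was the highest cKO library for 5 of 8.

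Seen as a share of the control mean, the ameloblast sum was 29.4%, 4.70% and 2.39% in the 3 cKO libraries. Cntnap2 stood at 33.2%, 33.5% and 26.6% and Esyt3 at 26.6%, 30.1% and 19.6%. Pcsk2 stood at 22.1%, 26.8% and 32.0%. These 3 genes varied less among the cKO libraries than the ameloblast sum did. Otop2 stood at 3.68%, 9.94% and 0.944%. Beside the ameloblast sum the 8 genes lay differently in each cKO library. In Pkm cKO replicate 1 Cntnap2 and Fam3c (45.3%) lay above the share of that sum, and Anks1b, Ralyl, Pcsk2, Mlip, Esyt3 and Otop2 below it. In replicate 2 all 8 lay above it. In replicate 3 Otop2 lay below it, and the other 7 genes lay above it. In controls that sum was mostly Amelx, at 18617, 15596 and 8564 CPM. Of the 11 ameloblast genes tested, 8 were lower without overlap, against 12.2% of all tested genes. Genes named here after their values were seen moved less. Odam stood at 443, 416 and 451 CPM in controls, against 216, 183 and 160 CPM in cKO libraries. Fam20a, Wdr72 and Fam83h overlapped, with log2 fold changes of -0.91, -0.55 and 0.26.

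Other cell types were not evenly represented. The 10 dental epithelial markers, which include the keratins Krt14 and Krt5 and the cadherin Cdh1, summed to 12943 to 15386 CPM in controls, against 9772 to 10721 CPM in cKO libraries. Scaled to this epithelial sum in each library, the 8 genes stood at 6.48% (Otop2) to 49.6% (Fam3c) of the control mean, where without this scaling they stood at 4.86% and 36.9%. These are the values that chose the genes, on another scale. The 15 dental mesenchyme genes summed to 19485 to 31206 against 17978 to 39632 CPM, mostly Col1a1 and Col1a2, and these sums overlapped. Gene by gene, 13 of the 15 were above 0, with a median log2 fold change of 0.71. Without overlap 8 of the 15 were higher and 0 lower, against 11.2% and 12.2% of all tested genes. Of 11 marker lists, 4 had higher sums in all cKO libraries, 3 had lower sums, and 4 overlapped.

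Since Cntnap2, Anks1b, Ralyl and Pcsk2 are best known from neurons and endocrine cells, markers of those cells are given beside them. The 14 neuron markers summed to 275 to 436 CPM in controls, against 121 to 295 CPM in cKO libraries, mostly Tubb3, and the sums overlapped. Of the 14 markers, 6 were too low to test, among them Elavl3, Elavl4, Nefl and Nefm, and none was at 0 in all libraries. Of the 8 tested, 4 were below 0 and 4 above, with a median log2 fold change of 0.18. Those whose groups did not overlap went both ways and are named here after their values were seen. Rbfox3, which encodes the neuronal nuclear antigen NeuN, stood at 10.7, 9.06 and 10.8 CPM in controls, against 4.68, 4.48 and 3.95 CPM in the cKO group (log2 fold change -1.22). Gap43, a growth cone gene, was higher at 0.871, 1.45 and 1.56 against 3.20, 2.99 and 9.61 CPM (log2 fold change 2.03). Syt1, a calcium sensor of synaptic vesicles, was also higher at 1.93, 1.04 and 1.87 against 3.29, 2.33 and 3.25 CPM (log2 fold change 0.87). The 9 Schwann cell markers summed to 127 to 160.0 against 161 to 183 CPM and the 5 neuroendocrine markers to 0.926 to 1.53 against 1.89 to 13.7 CPM, both higher in all cKO libraries and so opposite in direction to the 8 genes. Immune markers (11) summed to 80.3 to 87.1 against 129 to 219 CPM, and erythroid markers (7) to 575 to 805 against 268 to 356 CPM. The odontoblast sums, 2399 to 5316 against 227 to 3566 CPM, and the endothelial sums, 342 to 415 against 359 to 639.7 CPM, overlapped. The part of these shifts in the levels of the 8 genes was not tested.

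**Figure D2:**
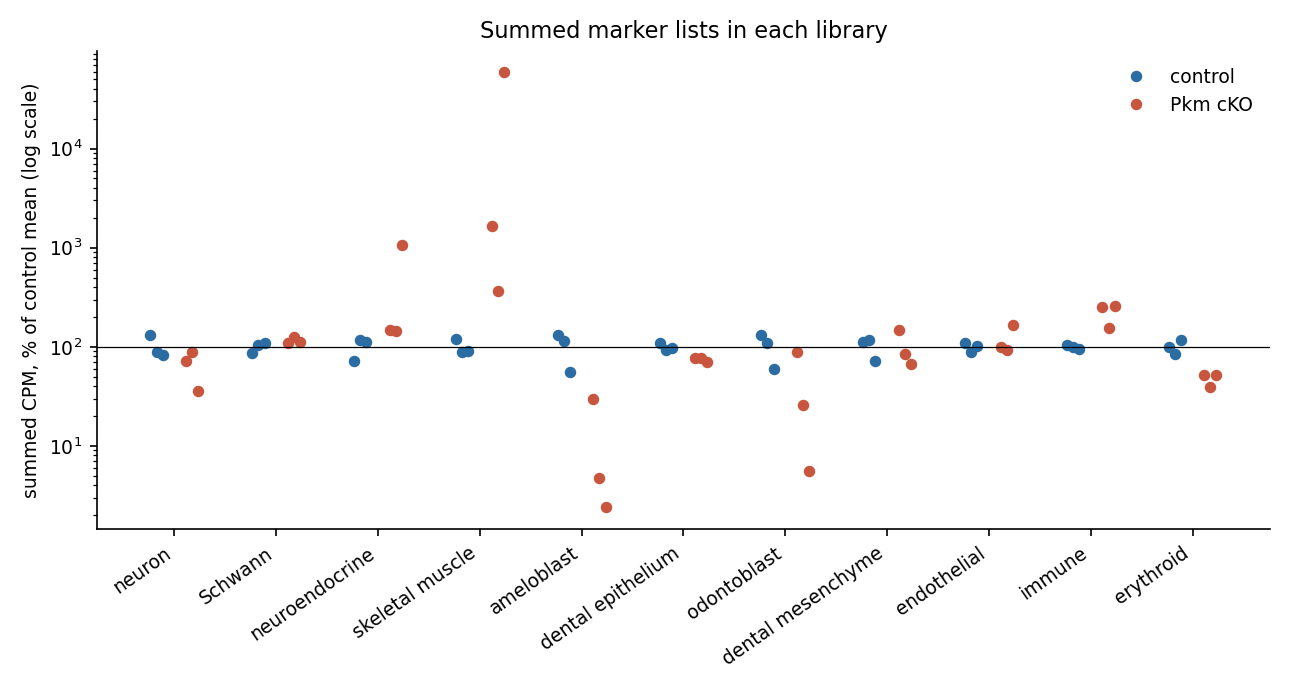
Summed CPM of each marker list in each library as a percentage of the control mean (log scale), for control (blue) and Pkm cKO (red) libraries. Ameloblast sums, in controls mostly Amelx, fall to 29.4%, 4.70% and 2.39% in the cKO libraries. Neuron sums overlap between the groups, and skeletal muscle sums are highest in Pkm cKO replicate 3 at 3673 CPM.

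Whether the close relatives of these genes differed as well was asked of genes that the choice had not used. Of 23 paralogs in the table, 19 were tested and 0 passed edgeR's quasi-likelihood test at an adjusted p under 0.05, against 0.552% of all tested genes. At an unadjusted p under 0.05 there were 4 (21.1%, against 17.5% of all tested genes). DESeq2 called 4 (21.1%, against 6.89%) and limma-voom 0 (against 0.0126%). The median log2 fold change of the 19 was -0.15, against 0.01 for all tested genes. Of the 19, 2 were lower without overlap (10.5%, against 12.2% of all tested genes) and 1 was higher (5.26%, against 11.2%).

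In the Caspr family, Cntnap4 went the same way as Cntnap2, at 2.15, 1.32 and 1.61 CPM in controls, against 0.226, 0.145 and 0.571 CPM in cKO libraries. The groups did not overlap, but it did not pass (log2 fold change -2.40 with an SE of 0.591, adjusted p 0.0954 in edgeR). Cntnap1, the Caspr of the paranode, stood at 12.7, 15.5 and 10.6 against 7.59, 22.1 and 13.5 CPM, and the groups overlapped. Among the extended synaptotagmins, Esyt2 stood at 161, 165 and 130 CPM in controls, against 109, 63.7 and 85.5 CPM in cKO libraries without overlap (log2 fold change -0.82 with an SE of 0.205, adjusted p 0.0983 in edgeR). Esyt1 had overlapping groups (log2 fold change -0.26, SE 0.153). Per kilobase of exon, Esyt2 (16.6 CPM) and Esyt1 (14.8 CPM) both lay above Esyt3 in controls. DESeq2 called Cntnap4 (adjusted p 0.00737) and Esyt2 (adjusted p 0.0155).

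The convertases differed among themselves. Furin, the convertase of the constitutive secretory pathway, stood at 339 to 437 CPM in controls, against 311 to 430 CPM in the cKO group (log2 fold change 0.01, SE 0.173). Pcsk1, the other convertase of prohormones, stood at 3.65, 3.55 and 2.41 against 4.75, 1.28 and 0.422 CPM, with overlapping groups. Pcsk6 stood at 6.24 to 7.29 CPM in controls, against 7.11, 25.6 and 40.3 CPM in the cKO group (log2 fold change 1.88 with an SE of 0.558, adjusted p 0.162 in edgeR). The groups of Pcsk4, Pcsk5, Pcsk7 and Mbtps1 overlapped, with log2 fold changes of 0.19, 0.12, -0.15 and -0.18. Pcsk6 did not pass in edgeR, and DESeq2 called it (DESeq2 adjusted p 0.00179).

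Otop1, the other otopetrin with enough reads, stood at 1.93, 1.94 and 0.882 against 3.04, 0.930 and 0.323 CPM, and the groups overlapped. Fam3a was measured at 35.7 to 37.6 CPM in controls, against 29.0 to 38.2 CPM in cKO libraries. The Ralyl relatives Raly (log2 fold change 0.20, SE 0.157) and Hnrnpc (0.03, SE 0.194) stood at 250 to 303 and 222 to 284 CPM in controls and overlapped between the groups. Per kilobase of exon they stood at 82.1 and 57.1 CPM in controls, far above Ralyl at 0.778. The Anks1b relatives Anks1, Anks3 and Anks6 had log2 fold changes of -0.17, -0.29 and -0.32, and all 3 overlapped. Otop3, Fam3b, Fam3d and Cntnap5a were too low to test.

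**Figure D3:**
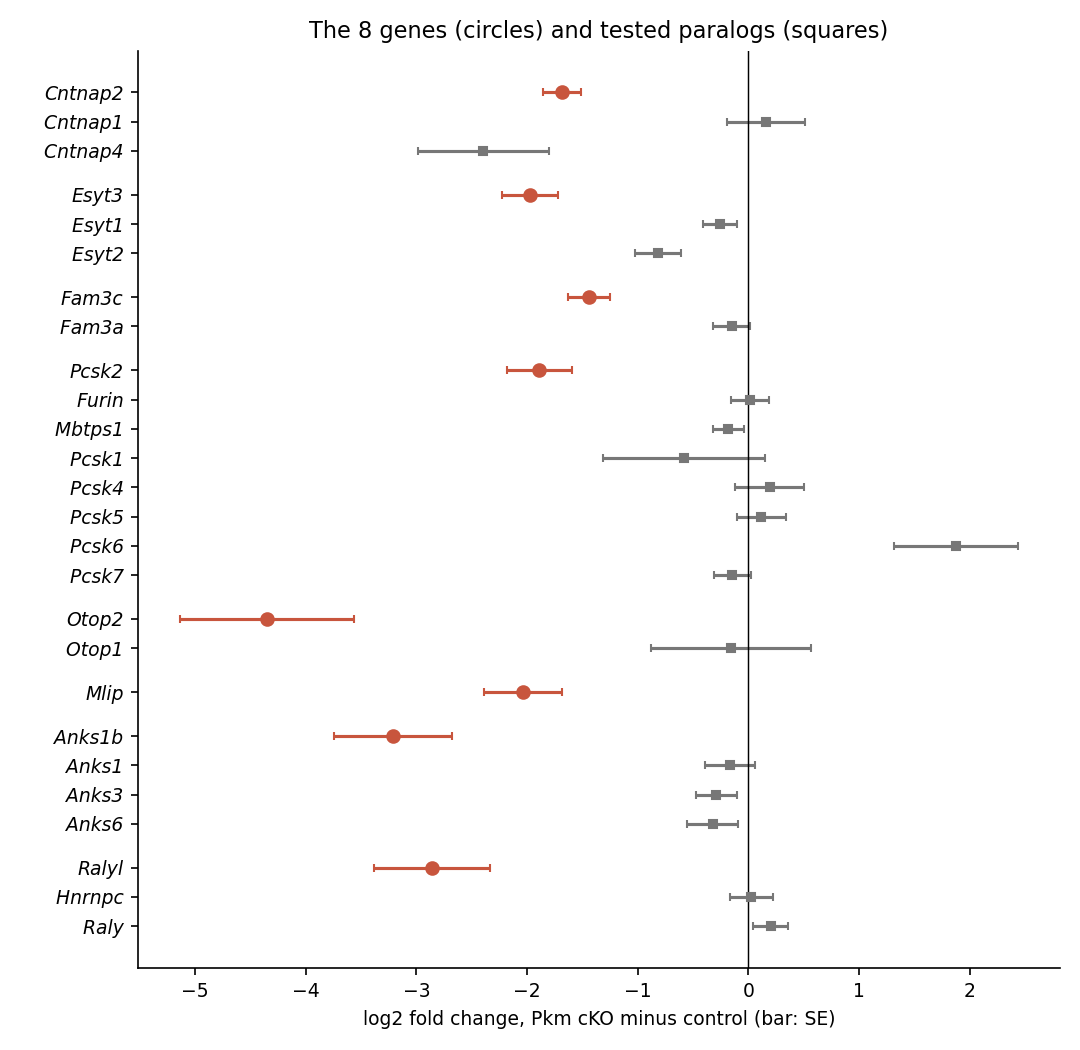
Log2 fold change, Pkm cKO minus control, with its SE for the 8 genes (red circles) and their tested paralogs that are reported here (grey squares). The 8 genes lie between -4.35 and -1.44. Of the paralogs, Cntnap4 lies at -2.40, Esyt2 at -0.82 and Pcsk6 at 1.88, none past the edgeR threshold.

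Partners and pathway genes of the 8 were counted in the same way. With the paralogs, 114 related genes were in the table and 104 were tested. In edgeR 0 of them passed and 26 had an unadjusted p under 0.05 (25%, against 17.5% of all tested genes). DESeq2 called 12 (11.5%, against 6.89%) and limma-voom 0. All 3 cKO libraries lay below the controls for 10 (9.62%, against 12.2% of all tested genes) and above them for 19 (18.3%, against 11.2%). The median log2 fold change was 0.09. Of the partners named below, Nrxn3, Kcna2, Dlg4, Scg5, Chga, Stim2, Sacm1l, Gramd2a and Lifr were chosen after their values were seen, and the others are among the most abundant of their list.

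Of 18 tested genes on the list of adhesion and axonal partners of Cntnap2, 13 were above 0, with a median of 0.58. Without overlap 8 were higher (44.4%, against 11.2% of all tested genes) and 2, Cntnap4 and the neurexin gene Nrxn3, were lower (11.1%, against 12.2%). The groups of the abundant partners overlapped. Nlgn2, a postsynaptic adhesion gene, stood at 346, 374 and 389 against 337, 470 and 328 CPM, and Epb41l3, which links Caspr proteins to the cytoskeleton, at 197, 183 and 180 against 178, 187 and 133 CPM. The scarce potassium channel gene Kcna2, whose product Caspr2 gathers, stood at 0.109, 0.0259 and 0.0778 against 0.711, 0.262 and 1.99 CPM (edgeR adjusted p 0.0889). It thus lay opposite to Cntnap2. On this list edgeR gave 8 at an unadjusted p under 0.05 (44.4%, against 17.5% of all tested genes) and DESeq2 called 4 (22.2%, against 6.89%).

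Of the 10 tested relatives and partners of Anks1b the median was -0.12, with 3 at an unadjusted p under 0.05 in edgeR (30%, against 17.5% of all tested genes) and 1 called by DESeq2 (10%, against 6.89%). App, which encodes the amyloid precursor protein, stood at 470 to 558 CPM in controls, against 539 to 752 CPM in cKO libraries. Dlg4, which encodes the scaffold PSD-95, stood at 19.8, 24.2 and 20.1 against 33.9, 52.2 and 26.3 CPM without overlap (edgeR adjusted p 0.146), higher where Anks1b was lower. The 10 hnRNP genes beside Ralyl had a median of 0.00 and 0 at an unadjusted p under 0.05.

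Genes that accompany Pcsk2 in regulated secretion were scarce. Scg5, the chaperone that prohormone convertase 2 needs to mature, stood at 0.109, 0.362 and 0.285 against 0.549, 0.203 and 0.0993 CPM, and Chga, a granin of secretory granules, was below 0.2 CPM in each library. The widely expressed processing enzymes Pam (358 to 479 against 351 to 404 CPM) and Cpe (95.9 to 122 against 115 to 180 CPM) overlapped. This list had a median of 0.19 over 15 tested genes, with 5 at an unadjusted p under 0.05 (33.3%, against 17.5% of all tested genes) and 3 called by DESeq2 (20%, against 6.89%).

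At membrane contact sites the median over 20 tested genes was -0.06, and 5 (25%) were lower without overlap, against 12.2% of all tested genes, while 1 (5%) was higher, against 11.2%. The lower ones were Esyt2, the endoplasmic reticulum tether gene Vapa (180, 181 and 214 against 167, 137 and 133 CPM), the calcium sensor gene Stim2, the lipid phosphatase gene Sacm1l and Gramd2a. Gramd2a, another tether of the endoplasmic reticulum at the plasma membrane, stood at 36.3, 28.7 and 22.3 against 16.9, 11.6 and 8.09 CPM (log2 fold change -1.26 with an SE of 0.292, adjusted p 0.0862 in edgeR). DESeq2 called it and Esyt2 (10%, against 6.89% of all tested genes), and 4 had an unadjusted p under 0.05 in edgeR (20%, against 17.5%). Stim1, the main sensor of calcium stores, stood at 194 to 220 against 192 to 204 CPM.

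Of 11 tested genes of proton and bicarbonate transport, the sodium bicarbonate cotransporter gene Slc4a4 stood at 269, 184 and 195 CPM in controls, against 116, 97.1 and 137 CPM in the cKO group (log2 fold change -0.89 with an SE of 0.193, adjusted p 0.0757 in edgeR). DESeq2 called it (adjusted p 0.00328). The anion exchanger gene Slc4a2, at 303, 247 and 239 against 219, 213 and 161 CPM, was also lower without overlap. These were the only 2 of the list that were (18.2%, against 12.2% of all tested genes). As many, 2, were higher without overlap (18.2%, against 11.2%). Of the 11 log2 fold changes 3 were below 0 and 8 above. The median of this list was 0.65, with 3 at an unadjusted p under 0.05 in edgeR (27.3%, against 17.5% of all tested genes) and 1 called by DESeq2 (9.09%, against 6.89%).

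The 12 genes of lamins and the nuclear envelope had a median of 0.22. Lmna, whose product Mlip binds, stood at 207, 220 and 255 CPM in controls, against 270, 341 and 496 CPM in the cKO group (log2 fold change 0.70 with an SE of 0.216, adjusted p 0.144 in edgeR), opposite to Mlip and not past the threshold. Around Fam3c the median of 8 tested genes was 0.08. Lifr, a receptor of ILEI, stood at 16.1, 17.8 and 16.2 against 29.7, 22.3 and 37.2 CPM without overlap (log2 fold change 0.83 with an SE of 0.217, adjusted p 0.105 in edgeR). DESeq2 called Lifr (adjusted p 0.0117) and 0 of the lamin list. At an unadjusted p under 0.05 in edgeR there were 2 on the lamin list (16.7%) and 1 around Fam3c (12.5%), against 17.5% of all tested genes.

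The neighbouring genes on the chromosome were examined next. The nearest named coding genes on either side, by the RefSeq gene order of GRCm38.p6, gave 15 genes in the table, of which 10 were tested. In edgeR 0 passed and 3 had an unadjusted p under 0.05 (30%, against 17.5% of all tested genes), and DESeq2 and limma-voom called 0. Without overlap 20% were lower (against 12.2%) and 10% higher (against 11.2%). Lrrc1, beside Mlip, was lower without overlap (63.0, 51.1 and 44.9 against 38.1, 40.8 and 32.1 CPM, edgeR adjusted p 0.189). Mras, beside Esyt3, was higher without overlap (log2 fold change 0.47), and Fads6, beside Otop2, overlapped.

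Some annotated genes overlap the 8. Gm2464, a long noncoding gene whose exons overlap those of Ralyl on the opposite strand, had 40, 18 and 12 reads in controls and 1, 0 and 0 reads in cKO libraries (edgeR adjusted p 0.0572). It is named here after its values were seen, and it was low in the same libraries as Ralyl. No strand setting of the counting is named in those sources, and reads of Ralyl and Gm2464 cannot be told apart with certainty. Ush1g, on the strand opposite to Otop2, had 13, 14 and 4 against 8, 0 and 0 reads. The antisense genes Pcsk2os1 and Pcsk2os2 had at most 6 reads in a library, few beside the 302 to 366 control reads of Pcsk2.

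By the same annotation Cntnap2, Anks1b and Ralyl each span over 500 kb, at 2245, 1100 and 711 kb. Of 170 other tested genes that long, 18.8% were lower without overlap, against 12.2% of all tested genes, and 0 were called lower and 1 higher by edgeR. Their median log2 fold change was 0.16. A length was found for 92.6% of tested genes.

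RefSeq promoter windows, from 250 bases before to 50 bases after an annotated start, were found for 7 of the 8 genes, 14 windows in all. Some of these windows overlap each other. The E-box CACGTG, a motif bound by basic helix-loop-helix factors, was present in 3 of the 14 windows (21.4%, against 7.15% of all 32841 windows), those of Mlip and Fam3c. TATAAA was present in 2 windows (14.3%, against 13.6%), both of Mlip. The 2 Mlip windows overlap and hold the same E-box and the same TATAAA, so these sites are counted in both. CCAAT was present in 4 windows (28.6%, against 37.4%) and GGGCGG in 7 (50%, against 35.7%), all motifs searched on both strands. Counted by gene, 2 of the 7 held an E-box, 1 TATAAA, 4 CCAAT and 6 GGGCGG. A match describes the letters and shows no binding. The 250 bases before the start are printed for the 2 genes with an E-box, since they share that motif and differ in base composition. Capitals mark the motifs, the build is GRCm38.p6, and both genes lie on the minus strand. The Mlip stretch (1 of 2 annotated starts) is chr9:77347871-77348120 and that of Fam3c chr6:22356082-22356331.
Mlip: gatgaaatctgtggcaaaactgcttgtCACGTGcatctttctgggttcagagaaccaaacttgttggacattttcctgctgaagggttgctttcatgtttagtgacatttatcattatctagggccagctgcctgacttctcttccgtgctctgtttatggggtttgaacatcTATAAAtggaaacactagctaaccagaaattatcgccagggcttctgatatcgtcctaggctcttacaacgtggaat
Fam3c: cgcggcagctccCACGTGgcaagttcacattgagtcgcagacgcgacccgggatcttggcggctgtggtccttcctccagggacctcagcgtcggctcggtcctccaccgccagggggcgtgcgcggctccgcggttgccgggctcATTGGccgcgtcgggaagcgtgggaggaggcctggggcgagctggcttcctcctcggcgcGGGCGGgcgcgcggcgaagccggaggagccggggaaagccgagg
These stretches hold 5 CpG pairs in Mlip and 34 in Fam3c. Whole windows ranged from 3 CpG pairs, at the downstream start of Cntnap2 and at an Anks1b start, to 45, in Fam3c and at another Anks1b start. The median over all windows was 7.

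Genes with the most similar profile were sought among 11095 tested genes of at least 5 CPM on average, as the smallest root-mean-square difference of log2 CPM over the 6 libraries after centring each gene on its own mean. The nearest gene to Cntnap2 was Pkm, with a difference of 0.163, and Pkm was also nearest to Pcsk2 (0.149) and Esyt3 (0.274). It was second to Mlip (0.414), behind the transcription factor gene Tfcp2l1 (0.301). For the others Pkm ranked 3rd (Anks1b), 22nd (Ralyl), 28th (Otop2) and 57th (Fam3c). In these profiles the difference between the groups is the largest part, and the measure counts genes with a similar fold as alike.

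The remaining nearest genes were Manf, a folding-stress protein of the endoplasmic reticulum, for Cntnap2 (0.236), Gask1b for Pcsk2 (0.319) and the dynein gene Dnah9 for Esyt3 (0.333). Those of Anks1b were Pi15 (0.480) and Aldh1a7 (0.483). Ctnna2, an alpha-catenin known from neurons, was nearest to both Ralyl (0.339) and Otop2 (0.822). It stood at 1018, 726 and 575 CPM in controls, against 196, 112 and 52.3 CPM in cKO libraries. The next were Bmp8b for Ralyl (0.482) and Gal3st4 for Otop2 (0.825). Nearest to Fam3c were the cyclophilin gene Ppic (0.158) and the glycosyltransferase gene B3galt1 (0.172). Among the 8 themselves, Cntnap2 and Fam3c (0.189) and Cntnap2 and Esyt3 (0.200) were most alike, and Otop2 and Fam3c (1.44) least.

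**Figure D4:**
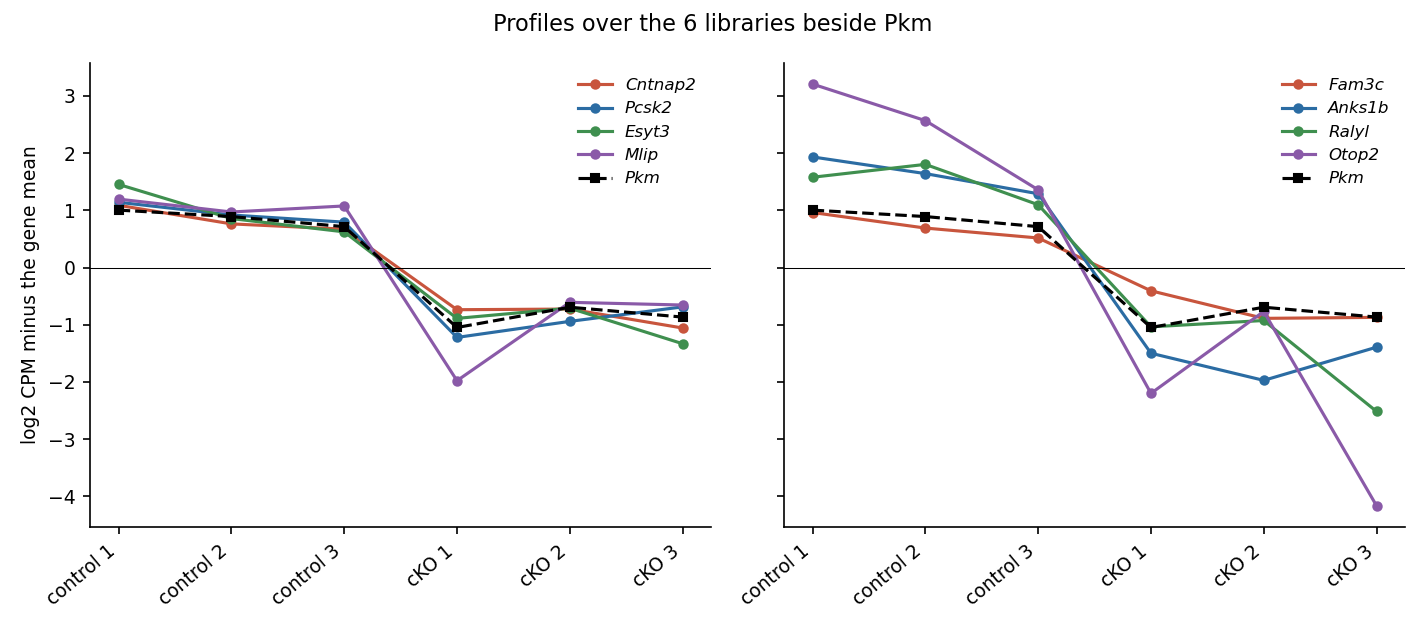
Log2 CPM, drawn without a prior count, of each of the 8 genes minus its own mean over the 6 libraries, with Pkm as a black dashed line. Lines join the points of a gene and imply no order of libraries. Cntnap2, Pcsk2 and Esyt3 lie along Pkm (differences of 0.163, 0.149 and 0.274), while Otop2 spreads farther above and below it.

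The annotation terms in the deposited table placed the 8 genes in different parts of the cell. Membrane was listed for 5 (32.6% of tested genes carry it), plasma membrane for 4 (20.3%) and nucleus for 3 (32.3%). Cntnap2 and Anks1b shared the terms synapse (4.65%) and glutamatergic synapse (3.63%), Cntnap2 and Pcsk2 neuronal cell body (3.38%), and Pcsk2 and Fam3c extracellular space (5.58%). No term of cell location was listed for all 8.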

How the data were processed

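The authors deposited whole-number read counts per gene for 6 RNA libraries. The submitters' processing notes name fastp, HISAT2 and the build mm39. No counting program, strand setting or annotation is named in the sources used here, so reads shared between overlapping or near-identical genes may be misplaced. Groups and replicate numbers came from the labels.

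From the deposited counts, genes passing filterByExpr were scaled by TMM and tested two-sided with edgeR 4.0.16 (quasi-likelihood, robust, R 4.3.3). Benjamini-Hochberg adjustment ran over 15930 genes, with a threshold of 0.05. Each fold change compares cKO with control, and its SE follows from the F statistic. Log2 CPM used a prior count of 2, except in the drawn profiles. Over all tested genes the median change was 0.01 (log2). The smallest chi-square per gene between libraries was 28.2, so none was a duplicate. The procedure was tested on simulated counts.

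The 8 genes, their 8 lists of related genes and the 11 marker lists were chosen with earlier results of these data known. Of 227 list entries 223 were found, 1 under another name. The rule for named genes took the 8, Pkm, the 2 most similar genes for each, all paralogs, related genes past the threshold and up to 4 abundant genes per list. Reference sequences and gene order were of GRCm38, another build than the counts. Some genes that are in the counts of called genes are not reported here by name. Protein identity between paralogs was planned and not run. Alternatives were DESeq2 1.42.0, limma-voom (limma 3.58.1), other scalings and filters, no robust estimation, the replicate block and leaving out each library.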

Additional observations from a re-analysis of the deposited data

How the results depend on the processing

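The 8 genes were chosen because their groups did not overlap, so a negative fold change under the alternatives was fixed by the choice and is no sign of stability. Over the alternatives the widest range of log2 fold change was that of Otop2 (-5.43 without Pkm cKO replicate 2 to -3.83 without Pkm cKO replicate 3), and the narrowest that of Cntnap2 (-1.77 to -1.55). The count of genes called over the whole table was fragile. It was 88 (55 higher, 33 lower) and became 55 with DESeq2 size factors in edgeR (39 higher, 16 lower), 518 with no filter beyond 1 read, 2 without robust estimation, 1098 with DESeq2, 2 with limma-voom and 708 with the replicate block. Upper-quartile scaling gave 57 higher and 18 lower. Leaving out 1 library gave 0 (any control) to 640 (Pkm cKO replicate 1), with 186 without Pkm cKO replicate 2 and 125 without replicate 3.

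Related genes called rose from 0 to 7 with no filter beyond 1 read, 12 with DESeq2 and 8 with the replicate block, and ranged from 0 to 7 when 1 library was left out (7 without Pkm cKO replicate 1, 1 without replicate 3). Neighbouring genes called were 0 in all alternatives but 1, with 1 gene without Pkm cKO replicate 1 (range 0 to 1). Alternatives for the neighbours were chosen after seeing the data. The log2 fold change of Pkm ranged from -1.82 to -1.66 when 1 library was left out, and its edgeR adjusted p was 0.0792, 0.0600 and 0.0790 without control replicates 1, 2 and 3. The causes were not tested. Same-numbered libraries deviated from their group means with correlations of 0.235, 0.0150 and 0.215. For differently numbered ones the correlations ran from -0.278 to 0.0703, so numbers 1 and 3 lay above this range and number 2 within it. These values do not decide whether equal numbers mark pairs. The labels name no pairs, and the main test used none. Depth limits Otop2, Anks1b and Ralyl, which had 1 to 18 reads in a cKO library.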
